A study of Homo sapiens with 24 samples.

Results

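Collagen genes were taken as the symbols of the deposited count table made of COL, a number, A and a number, with nothing before or after. This rule found 44 of 59385 symbols, the chains of the human collagens, and left out pseudogenes, antisense genes and other proteins with a short triple helix. RNA had been sequenced from cultures of A549 and H1299, both long-established lung carcinoma lines (non-small cell) of human origin. Each line had been stably transduced with lentivirus for FLAG-tagged SIRT6, a sirtuin that uses NAD to remove acetyl and longer acyl groups from histones, or for the empty vector (Ctr). The introduced SIRT6 was wild type (WT), a triple mutant that cannot be acetylated at the changed lysines (K3R) or a triple mutant that imitates acetylation there (K3Q). All cells, the Ctr cells included, carried a FLAG vector and kept their own SIRT6, and the labels give neither the promoter that drove the transgene nor whether the lines were clones or pools. The 2 lines and 4 constructs made 8 groups of 3 libraries, 24 in all. Each group held biological replicate 1 from batch 1 (library 1-1) and from batch 2 (1-2), and biological replicate 2 from batch 2 (2-2). The labels do not say whether 1-1 and 1-2 came from 1 culture, so the p-values may rest partly on technical spread.

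Collagens are secreted or membrane proteins in which 3 chains wind into a triple helix. Fibrillar collagens, such as types I, III and V, form the ropes of connective tissue, while type IV chains form the sheet-like network of basement membranes, on which epithelial cells rest. Other collagens decorate fibrils, anchor the epithelium, form beaded filaments or span the cell membrane. In lung tumours most fibrillar collagen comes from fibroblasts, and carcinoma cells make mainly the collagens of basement membranes and of the cell surface.

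SIRT6 was measured first, as a check of the labels. It lay at 22.1 to 33.6 CPM (a gene's counts scaled to a common library total) in the A549 Ctr libraries and at 1370 or more in every A549 library with a construct. In H1299 it lay at 35.2 to 46.3 CPM in Ctr and at 2490 or more with a construct, and the K3Q libraries stood highest at 10434 to 14552 CPM. Total counts per library ran from 14943189 to 22856407. CDKN2A, which A549 is known to have lost, reached 0 to 1.30 CPM in A549 against 105 to 146 in H1299, and 5 of the 12 A549 libraries had 0 reads of it. Fibroblast marker genes summed to 18.4 to 31.3 CPM in A549 and 3.55 to 13.8 in H1299, a list of 11 genes that includes the collagen genes COL1A1, COL1A2 and COL3A1. Of the other 8 genes of that list, ACTA2 lay at 2.96 to 11.2 CPM and THY1 at 2.79 to 7.01 in A549, and DCN, LUM, FAP, POSTN, PDGFRA and PDGFRB reached at most 0.743 in any of the 24 libraries. Of the epithelial genes, EPCAM, CDH1 and KRT19 reached at most 0.325, 0.643 and 0.414 CPM in H1299, and 26.8, 101 and 304 in A549, while KRT8 (257 to 487 CPM) and KRT18 (391 to 655 CPM) were present in H1299, below their A549 levels of 3167 to 7781 and 1209 to 3401. Endothelial markers summed to at most 1.99 CPM, leukocyte markers to at most 1.204 and smooth muscle markers to at most 9.93.

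The promoters of the 4 collagen genes that passed the test between constructs in H1299, described further on, are given here because these genes were higher together with WT or K3R. Each is the stretch of RefSeq sequence (GRCh38.p14) that ends at the start of the gene, 5′ to 3′ on the gene's own strand. Of the 44 genes, 32 had a promoter in this RefSeq table. Bases that GENCODE 29 already counts as part of the gene were left off, 29 for COL5A1, 77 for COL17A1 and 55 for COL26A1. Capitals mark any of 5 motifs on either strand: the TATA box (TATAAA), the CCAAT box, the GC box (GGGCGG), the E-box (CAGGTG) and the AP-1 site (TGANTCA).
COL5A1, chr9:134641553-134641773, plus strand: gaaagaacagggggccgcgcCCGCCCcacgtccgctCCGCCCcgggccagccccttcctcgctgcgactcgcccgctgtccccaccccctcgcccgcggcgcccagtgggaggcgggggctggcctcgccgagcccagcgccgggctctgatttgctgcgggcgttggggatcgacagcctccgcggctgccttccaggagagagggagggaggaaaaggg
COL12A1, chr6:75206054-75206303, minus strand: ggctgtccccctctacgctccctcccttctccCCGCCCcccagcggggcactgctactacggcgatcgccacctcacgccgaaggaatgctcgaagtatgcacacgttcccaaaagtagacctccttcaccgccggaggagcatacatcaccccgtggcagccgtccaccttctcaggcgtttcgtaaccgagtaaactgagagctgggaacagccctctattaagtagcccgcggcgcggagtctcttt
COL17A1, chr10:104085958-104086130, minus strand: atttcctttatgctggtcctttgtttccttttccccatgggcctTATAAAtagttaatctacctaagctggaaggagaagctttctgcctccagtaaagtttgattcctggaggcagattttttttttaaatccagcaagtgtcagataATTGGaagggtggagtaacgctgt
COL26A1, chr7:101362625-101362819, plus strand: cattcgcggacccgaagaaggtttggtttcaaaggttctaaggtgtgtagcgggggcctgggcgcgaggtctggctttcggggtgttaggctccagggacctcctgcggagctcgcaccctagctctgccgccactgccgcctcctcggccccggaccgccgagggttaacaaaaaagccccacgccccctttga
The stretch of COL5A1 held 2 matches to GGGCGG and that of COL12A1 held 1, all on the opposite strand. COL17A1 held 1 TATAAA and 1 CCAAT match, the latter on the opposite strand, and COL26A1 held none of the 5 motifs. No motif was common to all 4 genes. In the 250 bases before the first listed start of each gene, GGGCGG was found in 42.3% of 27305 genes and in 18 of the 32 collagen genes, CCAAT in 33.0% and 9, CAGGTG in 17.5% and 5, TATAAA in 11.1% and 5, and TGANTCA in 6.60% and 0. The median GC content of this window was 65.2% over the 32 collagen genes and 58.0% over all genes. A match is a description of the letters only.

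The collagen RNA that stood highest differed between A549 and H1299, though COL18A1 was among the first 3 chains in both by the measure below. Exon length was the union of all annotated exons of a gene, which can be longer than the transcript present. Per length of exon (CPM divided by exon length in kilobases, RPKM, median of 12 libraries), the highest chain in A549 was COL5A2 at 39.0, the α2 chain of fibrillar type V collagen. It was followed by COL18A1 at 32.7, a basement membrane collagen that releases endostatin, and by COL7A1 at 20.8, which forms the fibrils that anchor epithelium to the tissue beneath. The basement membrane chains COL4A2 at 11.3, COL4A6 at 8.75, COL4A1 at 5.98 and COL4A5 at 5.63 RPKM came next, with COL5A1 at 8.44 and COL6A1 at 6.41 among them. The union length was 19293 bases for COL4A2 and 14738 for COL4A1, against 7453 for COL5A2, so this order rests partly on the annotation. Without scaling by length, the median CPM in A549 was 291 for COL5A2, 278 for COL18A1, 231 for COL7A1 and 219 for COL4A2. In H1299 the order was led by COL6A2 at 20.4 and COL6A1 at 16.7 RPKM, the α2 and α1 chains of the beaded filaments of type VI collagen. COL18A1 at 10.7, COL12A1 at 5.34, a collagen that decorates fibrils, and the transmembrane collagens COL17A1 at 3.94 and COL13A1 at 1.57 RPKM followed. The ranges of COL6A1 and COL6A2 over the H1299 libraries overlapped (72.7 to 169 and 77.7 to 191 CPM, on nearly equal exon lengths of 5343 and 5386 bases). Of each library's counts, the 44 genes together held 0.135% to 0.204% (A549) or 0.0346% to 0.0652% (H1299).

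**Figure D1:**
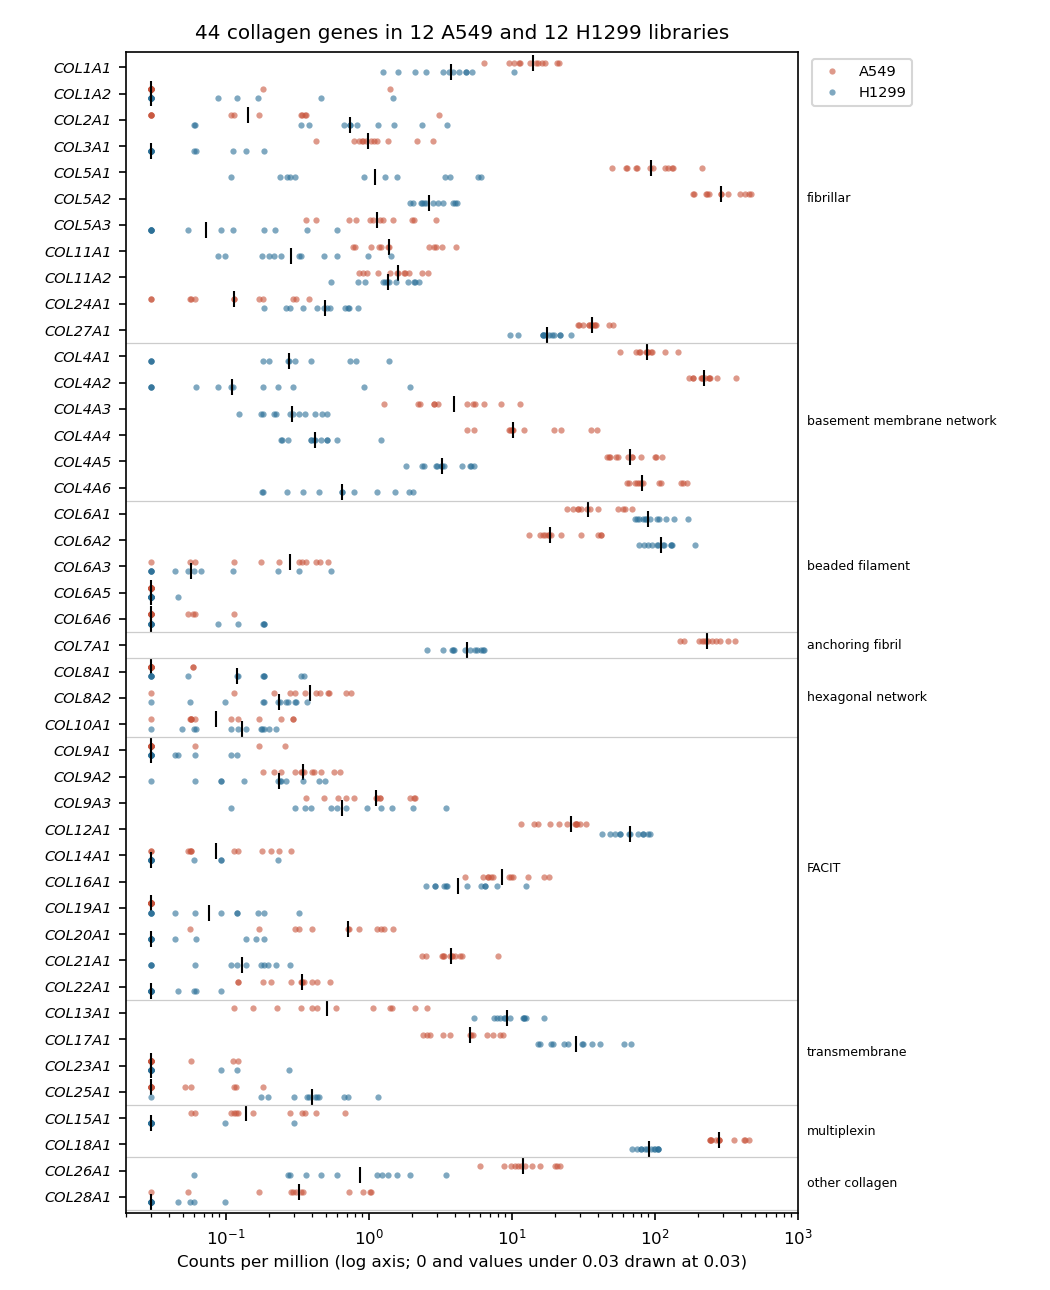
CPM (log axis) of the 44 collagen genes, 1 point per library (12 for A549 in red, 12 for H1299 in blue), with a black tick at each line's median; genes are ordered by class, and 0 is drawn at 0.03. The 6 type IV chains and COL7A1 lie to the right in A549, COL6A2, COL12A1, COL13A1 and COL17A1 lie to the right in H1299, and levels should be compared within a gene since they are not scaled by length.

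Between the empty-vector groups 27 of the 30 collagen genes tested differed by edgeR's quasi-likelihood test, 7 higher and 20 lower in H1299. In the same test 63.8% of 18102 genes differed, so a difference between the lines was common. The median log2 difference (H1299 minus A549) was -2.75 over the 30 collagen genes and 0.03 over all genes tested. Of the 30, 8 passed the low-count filter of the single-line fits in A549 only and 3 in H1299 only. The median therefore depends in part on which genes entered, and it is a description only. All 6 type IV chains were lower in H1299. COL4A1 had 78.4, 146 and 87.6 CPM in the A549 Ctr libraries (1-1, 1-2 and 2-2) and 1.38, 0 and 0 in those of H1299, a log2 difference of -7.79 ± 0.55 (SE; adjusted p = 8.1e-11). Its partner COL4A2 had 212, 367 and 214 CPM in A549 Ctr and 1.93, 0 and 0 in H1299 Ctr (-8.71 ± 0.60, adjusted p = 5.9e-11). The groups lay far apart, and the H1299 reads were all in library 1-1, where COL4A1 had 30 counts and COL4A2 had 42. COL4A6 (-8.37 ± 0.56), COL4A5 (-4.75 ± 0.36), COL4A4 (-4.37 ± 0.49) and COL4A3 (-2.97 ± 0.49) were lower too, with adjusted p of 2.1e-05 or less by edgeR.

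RNA of the type V chains COL5A1 and COL5A2 was also found mainly in A549. COL5A1, the α1 chain that controls the width of type I fibrils, had 118, 212 and 134 CPM in A549 Ctr and 1.56, 0.302 and 0.238 in H1299 Ctr (log2 -7.87 ± 0.58, edgeR adjusted p = 1.9e-10). COL5A2 differed by -7.39 ± 0.32, COL7A1 by -5.55 ± 0.29 and COL18A1 by -2.07 ± 0.16. For these 3 genes the Ctr groups did not overlap.

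The collagens higher in H1299 Ctr were 7. COL6A2 (1.96 ± 0.23) and COL6A1 (0.83 ± 0.25) were 2 of them, with COL17A1 (2.43 ± 0.33), a component of the hemidesmosomes that fix epithelial cells to their base, COL12A1 (1.23 ± 0.17) and COL13A1 (2.57 ± 0.53), a transmembrane collagen of cell adhesions. COL25A1, a transmembrane collagen best known from neurons, had 0 counts in all 3 A549 Ctr libraries and 25, 11 and 12 in H1299 Ctr, which is at least 14.9-fold higher when 3 counts over the group are taken as the floor. COL2A1, the collagen of cartilage, had 2 counts over the A549 Ctr group and 78 over that of H1299, a ratio of 36.4 (95% counting interval 9.73 to 306), but 76 of the 78 counts came from library 1-1. Without that library its log2 difference was 0.69 (adjusted p = 0.80). COL6A1 missed the threshold without H1299 Ctr 1-1 (adjusted p = 0.063), without A549 Ctr 1-1 (adjusted p = 0.073), with replicate 1 summed (log2 0.76, adjusted p = 0.077) and in batch 2 alone (log2 0.38, adjusted p = 0.31). COL2A1 missed it in batch 2 alone (adjusted p = 0.31) as well as without A549 Ctr 1-1 (adjusted p = 0.060), COL20A1 without A549 Ctr 2-2 (adjusted p = 0.061) and COL28A1 without H1299 Ctr 1-2 (adjusted p = 0.054).

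Of the 44 genes, 14 were too low to be tested in either line: COL1A2, COL6A3, COL6A5, COL6A6, COL8A1, COL8A2, COL9A1, COL9A2, COL10A1, COL14A1, COL15A1, COL19A1, COL22A1 and COL23A1. In A549 27 genes passed the filter on low counts and in H1299 22 did, of which 19 were shared. COL1A2, whose product joins that of COL1A1 in ordinary type I collagen, was at 0 in 17 of 24 libraries. COL1A1 had a median of 14.0 CPM in A549 and 3.74 in H1299. The highest COL1A2 counts were 32 in H1299 Ctr 1-1 and 24 in A549 K3R 1-1, and the same libraries held the highest COL2A1 counts, 76 and 53. COL3A1, the other main collagen of loose connective tissue, stayed at or below 2.81 CPM in A549 and 0.185 in H1299.

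Chains that meet in 1 molecule can be followed side by side. COL4A1 and COL4A2 are transcribed head to head on chromosome 13, with 126 bases between their RefSeq starts (110307157 and 110307284), a stretch of 80.2% GC with 1 CCAAT and 1 GGGCGG match. In A549 the RPKM of COL4A1 was 0.435 to 0.566 times that of COL4A2 over the 12 libraries, and the group means of this ratio were 0.513 ± 0.0271 for Ctr, 0.521 ± 0.0421 for WT, 0.522 ± 0.0235 for K3R and 0.503 ± 0.060 for K3Q (SD, n = 3). The level of such ratios, here and below, depends on the union exon lengths (14738 bases for COL4A1 and 19293 for COL4A2). It is therefore no measure of the proportion of the chains. The annotated spans of the 2 genes overlap in GENCODE 29, and the strand setting of the counting is not given in the sources used here, so reads near the starts could be assigned to neither. The pairs COL4A4 with COL4A3 and COL4A6 with COL4A5 lie head to head too, with 418 bases between the starts on chromosome 2 and 379 on chromosome X. Their ratios were looser, 0.206 to 0.607 for COL4A3 over COL4A4 and 0.436 to 0.771 for COL4A5 over COL4A6 in A549. COL5A1 over COL5A2 ran from 0.0701 to 0.473 in A549 and COL6A1 over COL6A2 from 1.44 to 2.03.

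In H1299 WT SIRT6 was accompanied by higher RNA of 3 collagen genes, COL5A1, COL12A1 and COL26A1, and by a fall in none of the 22 tested. The share of all genes that passed in this comparison was 4.05% of 16262, against 3 of 22 here. COL5A1 (GENCODE 29, chr9:134641774-134844843, plus strand) had 1.56, 0.302 and 0.238 CPM in Ctr and 5.79, 3.43 and 3.67 CPM in WT, that is 34, 5 and 4 counts against 125, 61 and 61. Every WT library stood above every Ctr library. The log2 change was 2.92 ± 0.44 (SE), a 7.56-fold rise (edgeR adjusted p = 0.0040, higher in 3 of 3 matched libraries). COL26A1, a minor secreted collagen, had 0.460, 0.362 and 0.0595 CPM in Ctr and 1.95, 1.35 and 3.43 in WT (chr7:101362820-101559024, plus strand). Its groups did not overlap, and its log2 change was 2.88 ± 0.55 (edgeR adjusted p = 0.012) on only 1 to 57 counts per library.

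COL12A1 (chr6:75084326-75206051, minus strand) was the change on the firmest counts, with 42.8, 57.0 and 48.8 CPM in Ctr and 91.8, 82.0 and 89.1 in WT. The WT libraries lay close together and above all Ctr libraries, and the log2 change was 0.84 ± 0.13, 1.79-fold (edgeR adjusted p = 0.0043). COL4A1, at 0 to 1.38 CPM in both groups, had a log2 change of -1.31 ± 1.12 (adjusted p = 0.61). Over the 22 genes the median log2 change was 0.58, with 18 of 22 above 0, and over all genes tested it was -0.01, with 7835 of 16262 above 0. The low-count filter used all 4 constructs, and COL5A1 and COL26A1 had most of their H1299 counts in WT and K3R. Genes that entered through the groups where they were high can tilt this median, so it is a description only. The same holds for the other medians over tested collagen genes. COL26A1 missed the threshold without WT 2-2 (log2 2.39, adjusted p = 0.0512), and COL5A1 without the batch term (2.55, adjusted p = 0.076). Batch 1 holds 1 library per group and gives no spread, and in batch 2 alone the log2 changes were 3.70 for COL5A1 (adjusted p = 0.021), 0.71 for COL12A1 (0.078) and 3.48 for COL26A1 (0.093). With both libraries of replicate 1 summed they were 2.61 (adjusted p = 0.14), 0.87 (0.039) and 3.15 (0.064).

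In the fit that blocks on the library number, 5 of the 22 genes were higher with WT in H1299, where 9.75% of all genes passed. The additions were COL17A1 (chr10:104031286-104085957, minus strand; log2 1.02 ± 0.17, adjusted p = 0.0017, 0.065 without the block) and COL1A1 (1.41 ± 0.36, adjusted p = 0.022, 0.058 without it). COL17A1 had 19.4, 15.1 and 24.7 CPM in Ctr and 23.3, 41.5 and 60.7 in WT. The WT library 1-1 lay below the highest Ctr library, though each WT library stood above the Ctr library of its number. COL1A1 had 3.86, 2.11 and 1.25 CPM in Ctr and 4.77, 4.27 and 10.4 in WT, without overlap.

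The K3R mutant was accompanied in H1299 by higher COL5A1, COL12A1 and COL17A1. These were 3 of the 22 genes, none fell, and 3.25% of all genes passed. COL12A1 had 82.8, 76.3 and 67.4 CPM in K3R (log2 0.67 ± 0.13, edgeR adjusted p = 0.015), above all Ctr libraries. COL17A1 had 31.2, 36.2 and 68.0 CPM (1.19 ± 0.28, edgeR adjusted p = 0.038) and did not overlap with Ctr. COL5A1 had 6.04, 1.28 and 0.929 CPM (1.95 ± 0.44, edgeR adjusted p = 0.030), so that its rise was uneven, and K3R 1-2 and 2-2 lay below Ctr 1-1. COL4A1 changed by 0.72 ± 0.98 (adjusted p = 0.76). Each of the 3 calls depended on single libraries. COL5A1 missed the threshold without K3R 1-1 (log2 1.35, adjusted p = 0.30), Ctr 2-2 (1.77, 0.10), Ctr 1-2 (1.86, 0.090) or Ctr 1-1 (2.55, 0.051). COL12A1 missed it without K3R 1-1 (0.54, adjusted p = 0.11), Ctr 1-1 (0.55, 0.074) or Ctr 2-2 (0.64, 0.061). COL17A1 missed it without K3R 2-2 (0.92, adjusted p = 0.16), K3R 1-1 (1.21, 0.14), Ctr 1-2 (0.94, 0.13) or Ctr 2-2 (1.23, 0.11). In batch 2 alone the changes were 2.06, 0.49 and 1.43 for COL5A1, COL12A1 and COL17A1, and none passed.

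With the replicate block 4 genes passed for K3R, among 8.56% of all genes. COL26A1 was the fourth, with 1.58, 1.14 and 1.24 CPM in K3R and a log2 change of 2.15 ± 0.55 (adjusted p = 0.027, 0.055 without the block). The median log2 change over the 22 genes was 0.47 against -0.01 over all genes. The Ctr libraries are shared by the WT, K3R and K3Q comparisons, so their changes are not independent of each other.

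With the K3Q mutant none of the 22 genes passed against Ctr, in the H1299 libraries of highest SIRT6 RNA. COL5A1 had 0.279, 0.268 and 0.108 CPM with K3Q, on 6, 4 and 2 counts, and differed from Ctr by -1.49 ± 0.60 (edgeR adjusted p = 0.44). COL12A1 had 52.4, 57.0 and 65.9 CPM (0.33 ± 0.13, adjusted p = 0.42), COL27A1, a fibrillar collagen of cartilage, differed by -0.48 ± 0.20 (adjusted p = 0.45), and COL4A1 by 0.17 ± 0.95 (adjusted p = 0.97). By edgeR 5 of the 22 had an unadjusted p under 0.05, as had 1580 of all 16262 genes. After adjustment 0.0615% of all genes passed. By DESeq2 0 of the 22 passed, among 126 of all genes.

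**Figure D2:**
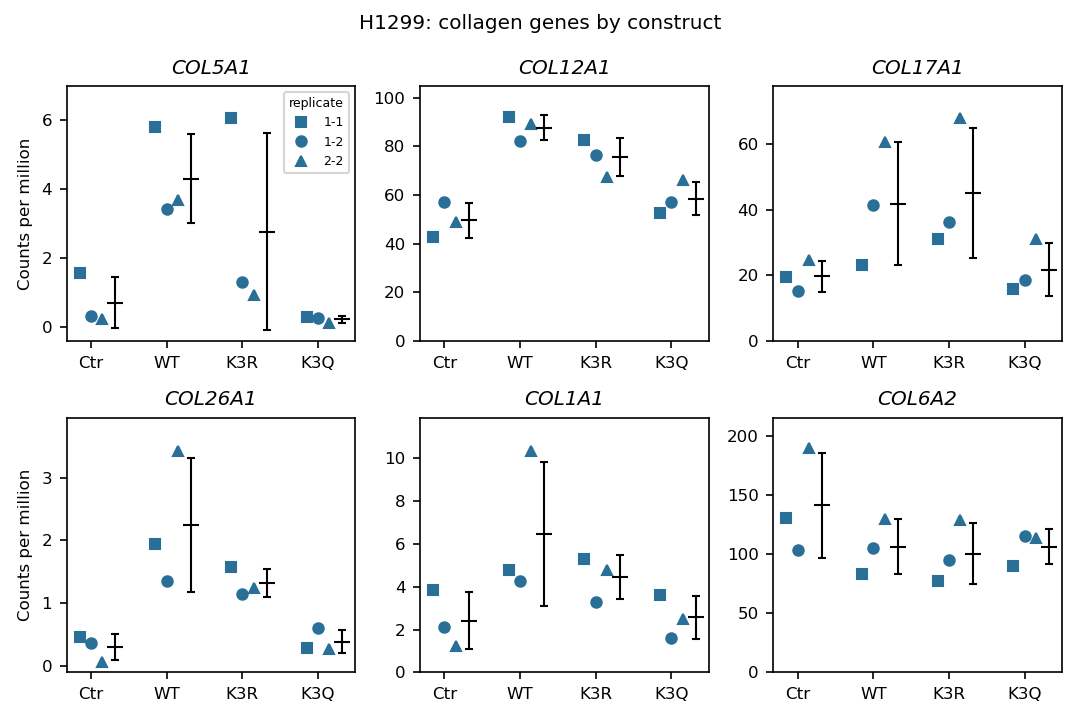
CPM (linear axis) of 6 collagen genes in the 12 H1299 libraries, by construct; symbols give the replicate number and the black bar the mean ± SD of 3 libraries. COL12A1 lies between 42.8 and 57.0 in Ctr and between 82.0 and 91.8 in WT, and COL5A1 is at or below 0.279 in all K3Q libraries.

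Set directly against WT, K3Q had lower COL5A1, COL12A1 and COL26A1 in H1299, 3 of 22 genes with 0 higher, where 3.46% of all genes passed. COL5A1 was 21.3-fold lower (log2 -4.41 ± 0.52, edgeR adjusted p = 0.0033, lower in 3 of 3 matched libraries). The call held in each fit that left out 1 of the 6 libraries (log2 -4.97 to -3.84) and in batch 2 alone (-4.16, adjusted p = 0.042), but not with replicate 1 summed (-4.21, adjusted p = 0.094). COL26A1 had 0.279, 0.602 and 0.271 CPM with K3Q and changed by -2.49 ± 0.54 (edgeR adjusted p = 0.027). COL12A1 changed by -0.51 ± 0.13 (edgeR adjusted p = 0.048). For all 3 genes the K3Q libraries lay below the WT libraries without overlap. COL12A1 missed the threshold in 5 of 6 fits without 1 library, all but that without K3Q 2-2 (log2 -0.56 to -0.43, adjusted p 0.077 to 0.27). COL26A1 missed it without WT 1-1, WT 2-2 or any K3Q library (-2.99 to -1.97, adjusted p 0.054 to 0.18). The median log2 change was -0.61 over the 22 genes, with 20 below 0, and 0.00 over all genes.

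The replicate block raised the number to 7 of 22, all lower with K3Q than with WT, with 12% of all genes passing. The additions were COL17A1 (-0.84 ± 0.17, adjusted p = 0.0067), COL27A1 (-0.75 ± 0.17, adjusted p = 0.011), COL18A1 (-0.32 ± 0.08, adjusted p = 0.022) and COL1A1 (-1.25 ± 0.36, adjusted p = 0.034). COL27A1 had 11, 9.70 and 16.6 CPM with K3Q and 18.3, 21.5 and 25.9 with WT, without overlap. COL18A1 had 69.4, 80.3 and 74.7 CPM with K3Q and 87.5, 105 and 106 with WT, on 1200 to 1890 counts per library, again without overlap.

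Against K3R, K3Q had lower COL5A1 alone among the 22 genes (log2 -3.44 ± 0.54, 10.9-fold, edgeR adjusted p = 0.023), and 0.449% of all genes passed. The groups did not overlap, but the call was missed without K3R 1-1 (-2.84, adjusted p = 0.13), K3Q 1-1 (-2.83, 0.25), K3Q 1-2 (-3.90, 0.053) or K3Q 2-2 (-3.38, 0.082). In batch 2 alone the change was -2.52 (adjusted p = 0.35). The replicate block added COL17A1 (-0.99 ± 0.17, adjusted p = 0.0055) and COL16A1 (-1.14 ± 0.29, adjusted p = 0.049), a collagen that decorates fibrils, among 3.23% of all genes. The median log2 change was -0.49 over the 22 genes and 0.01 over all genes.

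K3R and WT were not separated in H1299. None of the 22 genes passed by edgeR or DESeq2, and 0 of all 16262 genes passed (0%). By edgeR 1 of the 22 had an unadjusted p under 0.05, as had 486 of all genes. The 3 lowest p-values belonged to COL5A1 (log2 -0.97 ± 0.38), COL4A1 (2.03 ± 1.12) and COL24A1 (-0.69 ± 0.43), each with an edgeR adjusted p of 0.999. The errors, as large as 1.12 for COL4A1, leave room for differences between K3R and WT in the low genes.

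In A549 no collagen gene passed between constructs. Against Ctr, 0 of 27 passed by edgeR for WT, K3R and K3Q, where 0.105%, 0.118% and 0.0248% of 16120 genes did. The unadjusted p was under 0.05 for 7, 9 and 11 of the 27, against 1279, 1115 and 1390 of all genes. DESeq2 called 2, 1 and 3 of the 27, where it called 178, 162 and 154 of all 16120 genes. These were COL7A1 and COL5A3 for WT, COL4A4 for K3R, and COL5A1, COL4A4 and COL6A2 for K3Q. The median log2 changes were 0.00, -0.04 and -0.38, and 0.00 over all genes in each of the 3 comparisons.

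COL5A1 had the lowest p for K3Q against Ctr among the 27 collagen genes tested in A549. It had 118, 212 and 134 CPM in Ctr, 97.3, 91.6 and 131 in WT, 73.1, 74.6 and 123 in K3R and 49.7, 63.4 and 62.4 in K3Q. The K3Q libraries lay below all others of A549. The log2 changes against Ctr were -0.50 ± 0.22 for WT (adjusted p = 0.60), -0.75 ± 0.22 for K3R (0.32) and -1.34 ± 0.22 for K3Q (0.079). Without Ctr 2-2 the K3Q change was -1.50 and passed (adjusted p = 0.048). K3Q libraries 1-2 and 2-2 were unusually alike, with a chi-square over genes, divided by its degrees of freedom, of 2.49 against 14.4 to 63.6 for every other pair of a group, and the spread of that group rests mainly on 1-1.

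COL12A1 had 11.6, 21.4 and 24.2 CPM in A549 Ctr, 28.4, 27.8 and 29.9 in WT, 27.5, 28.0 and 32.7 in K3R and 18.3, 14.2 and 15.1 in K3Q. The WT and K3R libraries stood above all Ctr libraries, but the changes did not pass (0.65 ± 0.20, adjusted p = 0.35 for WT and 0.68 ± 0.20, 0.35 for K3R), nor did that of K3Q (-0.17 ± 0.20, 0.79). COL4A1 changed by 0.00 ± 0.22 with WT, -0.18 ± 0.22 with K3R and -0.53 ± 0.22 with K3Q, and COL4A2 by -0.04 ± 0.19, -0.21 ± 0.19 and -0.50 ± 0.19, with edgeR adjusted p from 0.508 to 0.999. For both genes the K3Q libraries lay below all Ctr libraries, though K3Q 1-2 and 2-2 were unusually alike, as given above. The share of all genes whose groups did not overlap was not determined. Lack of overlap is therefore a description only, here and elsewhere. COL6A2 had 18.1, 41.9 and 42.2 CPM in Ctr and 13.1, 16.5 and 15.6 in K3Q (-1.03 ± 0.24, adjusted p = 0.21), and its partner COL6A1 changed by -0.70 ± 0.19 (adjusted p = 0.32). COL5A3, the α3 chain of type V collagen, changed by 1.98 ± 0.47 with WT (adjusted p = 0.19) at 0.365 to 2.96 CPM in these groups.

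**Figure D3:**
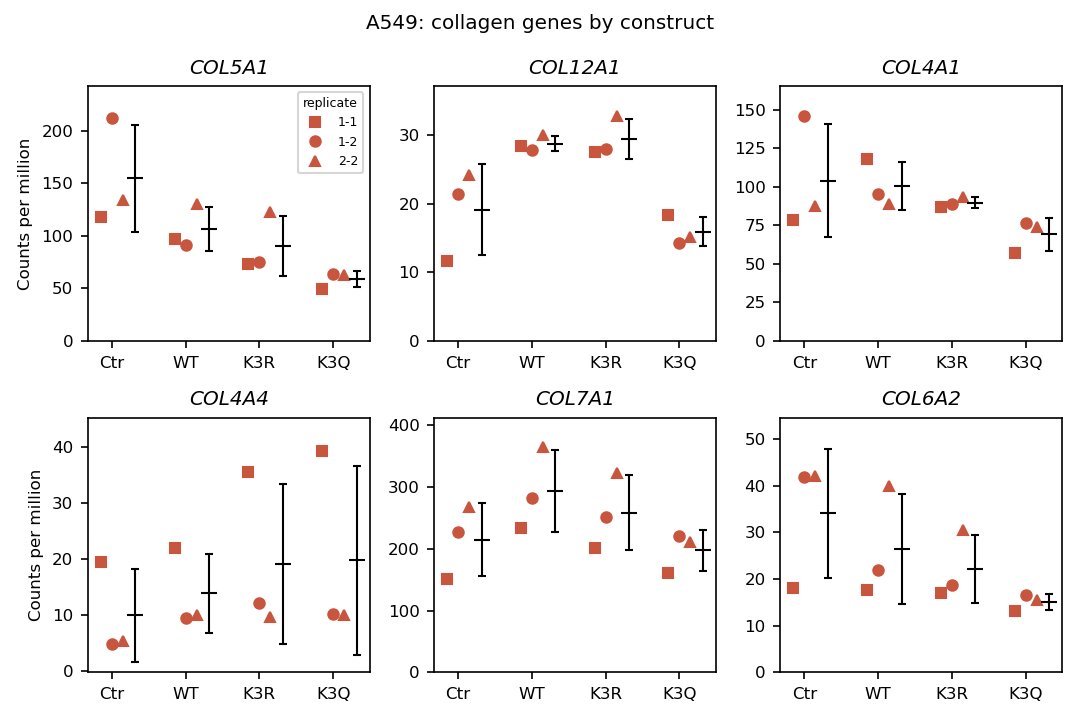
CPM (linear axis) of 6 collagen genes in the 12 A549 libraries, by construct; symbols give the replicate number and the black bar the mean ± SD of 3 libraries. COL5A1 lies at 49.7 to 63.4 in K3Q and at 118 to 212 in Ctr, while COL4A4 is highest in library 1-1 of every group.

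Libraries of the same number moved together in A549 Ctr, WT and K3R, and with the replicate block 1 gene passed for WT and 1 for K3R. The blocked fit held all 12 A549 libraries, so its block terms and spread rest partly on K3Q libraries, which were not taken as pairs. COL7A1 had 151, 227 and 268 CPM in Ctr and 235, 283 and 365 in WT. The groups overlapped, yet each WT library stood above the Ctr library of its number, and the blocked log2 change was 0.50 ± 0.09 (adjusted p = 0.035, 0.15 without the block), with 0.651% of all genes passing. COL4A4 had 19.5, 4.83 and 5.42 CPM in Ctr and 35.6, 12.2 and 9.71 in K3R. Library 1-1, the only one of batch 1, was the highest of both groups, and the blocked log2 change was 1.02 ± 0.17 (adjusted p = 0.026, 0.056 without the block), with 0.546% of all genes passing. For WT, COL4A4 changed by 0.70 ± 0.18 (adjusted p = 0.21), and for K3Q by 1.04 ± 0.18 (adjusted p = 0.087). Its head-to-head partner COL4A3 changed by 0.71 ± 0.40, 0.81 ± 0.40 and 0.71 ± 0.40 for WT, K3R and K3Q, without passing.

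Between the A549 constructs 0 of 27 genes passed by edgeR in each comparison. For K3R against WT 0% of all genes passed, and 0 of 27 had an unadjusted p under 0.05, beside 116 of all genes. The lowest p belonged to COL11A1 (0.66 ± 0.32), COL4A4 (0.33 ± 0.17) and COL27A1 (-0.20 ± 0.11). For K3Q against WT 0.00620% of all genes passed, and DESeq2 called COL7A1 and COL12A1, among 56 of all genes. By edgeR 11 of 27 had an unadjusted p under 0.05, as had 1041 of all 16120 genes. The lowest were COL7A1 (-0.54 ± 0.11, adjusted p = 0.33), COL12A1 (-0.82 ± 0.20, 0.41) and COL5A1 (-0.84 ± 0.22, 0.44), and 22 of 27 genes had a log2 change below 0 with a median of -0.46. For K3Q against K3R 0.00620% of all genes passed, and 5 of 27 had an unadjusted p under 0.05, beside 708 of all genes. The lowest by edgeR were COL12A1 (-0.84 ± 0.20, adjusted p = 0.74), COL1A1 (-0.86 ± 0.28, 0.97) and COL7A1 (-0.35 ± 0.11, 0.97). DESeq2 called 0 of the 27 for K3R against WT and 0 for K3Q against K3R, where it called 0 and 23 of all genes.

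**Figure D4:**
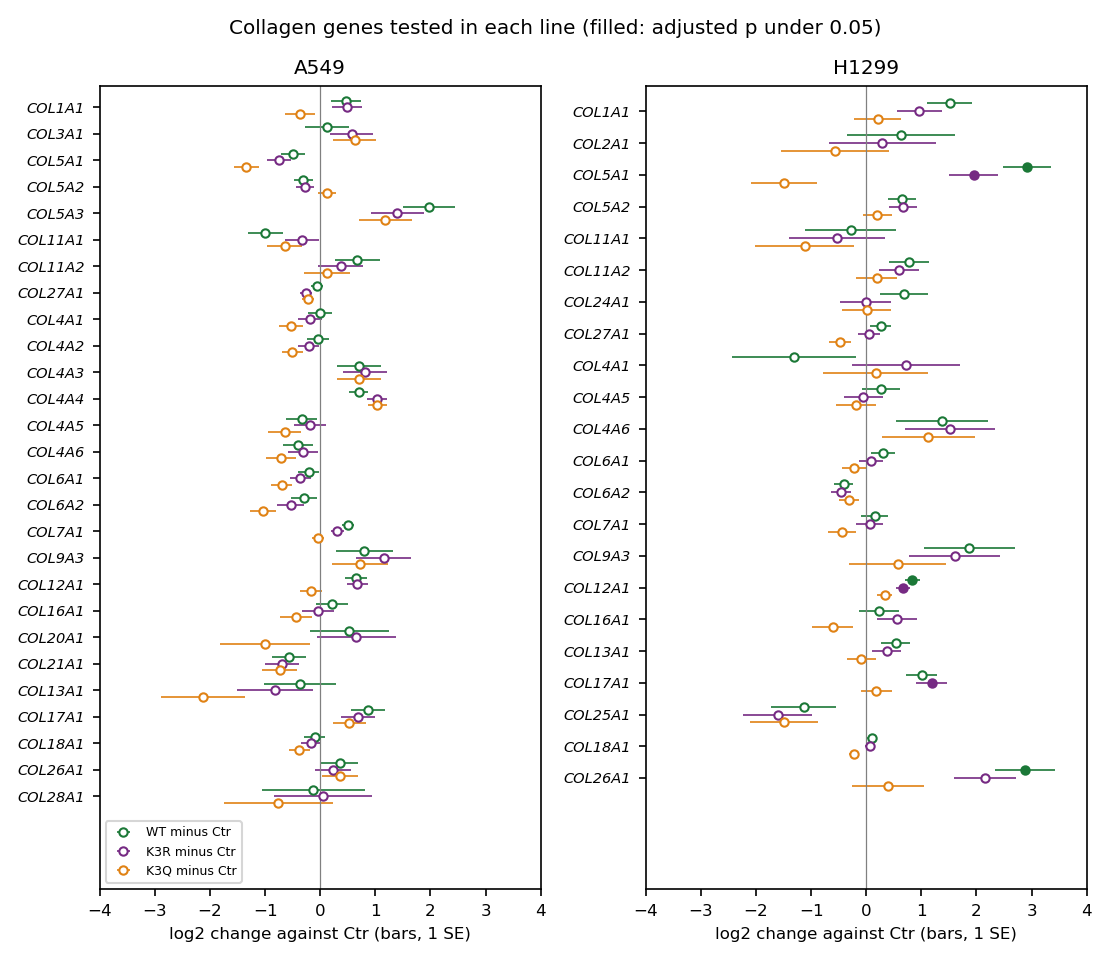
Log2 change of each tested collagen gene against Ctr in A549 (27 genes, left) and H1299 (22 genes, right) for WT, K3R and K3Q; bars are 1 SE, and filled points passed an adjusted p of 0.05. The 6 filled points are all in H1299 and to the right of 0, for COL5A1, COL12A1, COL17A1 and COL26A1 with WT or K3R.

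A change that passed in H1299 and not in A549 is not shown to differ until the difference is tested. For COL5A1 the WT change was 3.05 ± 0.73 log2 units larger in H1299 than in A549 (edgeR adjusted p = 0.072). COL5A1 rose in H1299, and its A549 change was -0.50 without passing. Without H1299 Ctr 1-1 the difference was 4.47 (adjusted p = 0.027), and in batch 2 alone it was 4.34 (adjusted p = 0.0084). The K3R difference was 2.71 ± 0.74 (adjusted p = 0.17). For COL26A1, at 5.96 CPM or more in every A549 library, the WT difference was 2.55 ± 0.66 (adjusted p = 0.11), and for COL12A1 it was 0.20 ± 0.24 (adjusted p = 0.93). No collagen gene of 30 passed for WT, K3R or K3Q, where 0.365%, 0.238% and 0.0110% of 18102 genes did. The unadjusted p was under 0.05 for 3, 7 and 5 of the 30, beside 1421, 1293 and 922 of all 18102 genes. DESeq2 called 2, 0 and 0 of the 30, beside 198, 159 and 16 of all genes. The 2 were COL5A1 (3.29, DESeq2 adjusted p = 0.020) and COL26A1 (2.63, 0.0082).

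Genes that build, cut, link and degrade collagen were read from lists of known function. In H1299 the shares of all genes that passed, against which the counts of these lists are to be read, were 4.05% for WT and 3.25% for K3R against Ctr. The first steps are hydroxylation and folding in the endoplasmic reticulum. In H1299, of 19 synthesis and folding genes, P3H1, a prolyl 3-hydroxylase, rose with WT (log2 0.45 ± 0.09, edgeR adjusted p = 0.015) and K3R (0.47 ± 0.09, 0.016). COLGALT2, which adds galactose to collagen, fell with WT (-0.90 ± 0.22, 0.035) and K3R (-1.01 ± 0.22, 0.024). P3H1 went from 49.5 ± 1.08 CPM in Ctr (SD, n = 3) to 67.1 ± 2.56 in WT. Of 10 secretion genes SEC31A, a coat protein of the vesicles that carry collagen, rose with WT (0.43 ± 0.09, adjusted p = 0.022). With K3R none of the 10 passed, the lowest being SEC31A (0.33, adjusted p = 0.073) and SEC24D (0.50, 0.11). Between K3Q and WT none of the synthesis or secretion genes passed, led by CRTAP (0.35, adjusted p = 0.066) and P4HA1 (-0.49, 0.073), and by SEC23A (-0.32, 0.067) and SEC24D (-0.50, 0.10).

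Of 6 crosslinking genes, 3 were lower with K3Q than with WT in H1299, where 3.46% of all genes passed: LOX (log2 -1.48 ± 0.33, edgeR adjusted p = 0.030), LOXL1 (-0.81 ± 0.17, 0.026) and LOXL2 (-0.42 ± 0.10, 0.043), copper enzymes that join collagen chains. TGM2 (-1.42, adjusted p = 0.074), LOXL3 (0.54, 0.11) and LOXL4 (-1.75, 0.14) did not pass. LOX was at 19.2 ± 9.74 CPM in WT and 6.41 ± 3.25 in K3Q (SD, n = 3). Against Ctr only LOXL2 of the 6 passed with WT (0.40 ± 0.10, adjusted p = 0.045), LOX was at -0.98 ± 0.33 with K3Q (adjusted p = 0.37), and with K3R the lowest were LOXL2 (0.33, 0.11) and LOXL1 (0.53, 0.12). Of 6 genes of procollagen cleavage, BMP1 (-0.67 ± 0.17, adjusted p = 0.045) and ADAMTS3 (-0.64 ± 0.16, 0.046) were lower with K3Q than with WT, and none passed against Ctr, where the lowest were FURIN with WT (0.23, 0.40) and PCOLCE2 with K3R (-0.24, 0.34). The median over the crosslinking list was -1.12 for K3Q against WT, beside 0.00 over all genes.

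Of the breakdown and uptake genes some rose and some fell, beside 4.05% of all genes passing for WT, 3.25% for K3R and 3.46% for K3Q against WT. Of 10 degradation genes MMP2, a gelatinase, rose with WT (log2 2.36 ± 0.45, edgeR adjusted p = 0.012) and K3R (2.15 ± 0.45, 0.023), while the lysosomal protease CTSL fell with both (-1.004 ± 0.156, 0.0044 and -0.86 ± 0.16, 0.011). Between K3Q and WT, MMP2 (-1.90 ± 0.44, adjusted p = 0.034) and MMP15 (-1.65 ± 0.42, 0.049) were lower and CTSL was higher (0.63 ± 0.16, 0.045). Of 8 receptors MRC2, which takes up collagen fragments, rose with WT (0.73 ± 0.12, adjusted p = 0.0064) from 37.0 ± 6.48 to 60.7 ± 7.56 CPM (SD, n = 3) and was lower with K3Q than with WT (-0.69 ± 0.12, 0.012). With K3R it was at 0.39 ± 0.12 (adjusted p = 0.11).

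Of 9 collagen-binding matrix proteins tested in H1299 (shares of all genes as above), COMP rose with WT (log2 2.24 ± 0.39, edgeR adjusted p = 0.0074) and K3R (2.23 ± 0.39, 0.0094), and it stood at 2.23 ± 0.39 with K3Q without passing (0.079). THBS1 rose with WT (1.60 ± 0.39, adjusted p = 0.038) and was lower with K3Q than with WT (-1.66 ± 0.38, 0.035). NID2, a linker of basement membranes, fell with K3R (-2.06 ± 0.36, adjusted p = 0.0095), as did fibronectin, FN1 (-0.81 ± 0.19, 0.033). Over the H1299 libraries COMP lay at only 0.238 to 3.28 CPM and NID2 at 0.372 to 2.57. NID2 lay at 4.35 to 24.8 CPM in A549, so its differences between the lines, below, rest on low H1299 levels. In A549 NID2 rose with K3R (1.61 ± 0.26, adjusted p = 0.049), the 1 gene of these 9 lists to pass there against Ctr, beside 0.118% of all genes for K3R. The NID2 changes differed between the lines (H1299 minus A549) by -2.29 ± 0.38 for WT (adjusted p = 0.0059), -3.66 ± 0.41 for K3R (0.00026) and -2.46 ± 0.41 for K3Q (0.044). Of 19 transcription factors known for collagen genes, ZEB2 fell with WT (-1.07 ± 0.18, adjusted p = 0.0063) and K3R (-0.92 ± 0.18, 0.015) and RFX5 fell with WT (-0.45 ± 0.11, 0.035). Of 6 other genes with a triple helix, SCARA3 was lower with K3Q than with WT (-2.66 ± 0.56, adjusted p = 0.025) and stood at 1.65 ± 0.52 with WT against Ctr (0.098). SCARA3 was low as well, at 0.162 to 5.12 CPM in H1299. With K3Q against Ctr or K3R none of the genes of these lists passed in H1299. The lowest were COMP, above, and NID1 (-0.83 ± 0.16, adjusted p = 0.093) against Ctr, and LOXL1 (-0.77 ± 0.17, 0.070) and BMP1 (-0.66 ± 0.17, 0.10) against K3R. In A549 the nearest to passing with WT were NID2 (1.52 ± 0.26, adjusted p = 0.059) and NID1 (-0.82 ± 0.16, 0.098), and with K3Q NID1 (-1.07 ± 0.16, 0.060) and SPARC (-2.24 ± 0.40, 0.0996).

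**Figure D5:**
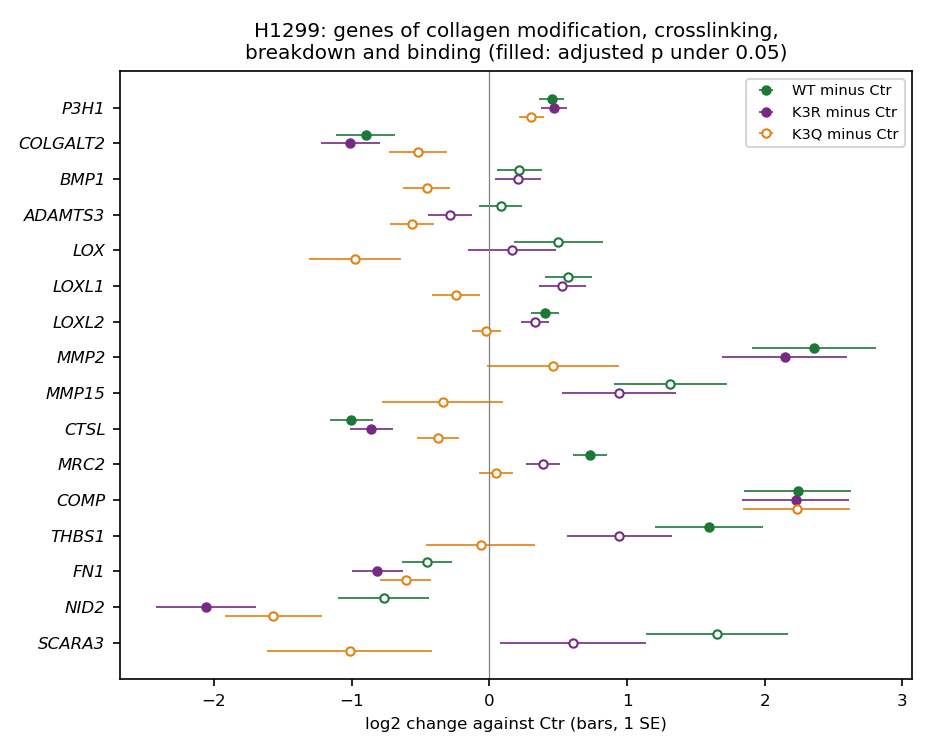
Log2 change against Ctr in H1299 of 16 genes that modify, link, degrade or bind collagen, for WT, K3R and K3Q; bars are 1 SE, and filled points passed an adjusted p of 0.05. Filled points are found for WT and K3R only, as for MMP2 at 2.36 and 2.15, and no K3Q point is filled.

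Markers of other cells gave values beside these changes. The fibroblast list summed to 4.17 to 10.1 CPM in H1299 Ctr, 7.53 to 13.8 in WT, 5.83 to 9.36 in K3R and 3.55 to 6.499 in K3Q, and these sums include COL1A1. Of the 11 genes, DCN, LUM, FAP, THY1, POSTN, PDGFRA and PDGFRB stayed at or below 0.743 CPM in every H1299 library, COL1A2 reached 1.47 and COL3A1 0.185, and ACTA2 lay between 1.14 and 3.68. VWF, an endothelial gene, rose with WT (log2 3.52 ± 0.74, edgeR adjusted p = 0.020) to 0.726 ± 0.375 CPM (SD, n = 3), and of the other 4 endothelial genes, KDR reached 1.25 CPM and PECAM1, CDH5 and TEK at most 0.487 in H1299. The part of these genes' sources in the collagen changes was not tested.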

How the data were processed

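The authors deposited raw read counts for 59385 gene symbols in 24 RNA-seq libraries. FastQC, cutadapt, STAR, featureCounts and GRCh38 are listed in the submitters' processing notes; neither versions, annotation release nor strand setting are stated in the sources used here. CPM were computed from library totals, and lengths and coordinates come from GENCODE 29, joined by symbol. Each length is the union of all annotated exons of the gene. Each line's 12 libraries were fitted with edgeR 4.0.16 in R 4.3.3 (filterByExpr, TMM, quasi-likelihood test, construct and batch), with Benjamini-Hochberg adjustment over all genes tested and a threshold of 0.05. The line difference and its interactions used all 24 libraries. SE is the absolute log2 change over the square root of F. Tested on simulated data (WT against Ctr, 100 genes per fold), the fit recovered 11% of 1.5-fold and 76% of 3-fold changes in A549 and 26% and 90% in H1299. It made 5 false calls in A549 and 4 in H1299. The simulated counts held no batch shift and no likeness of same-numbered libraries, so these rates need not hold for the real libraries. Deviations of same-numbered libraries from their group means correlated at 0.134 to 0.549 in H1299 and at 0.379 to 0.749 among A549 Ctr, WT and K3R, so these numbers were taken as pairs. Library 1-1 alone is batch 1, so batch is part of the number. With A549 K3Q the correlation was 0.453 to 0.597 for 1-1 and 0.278 to 0.345 for 1-2, but 0.0569 to 0.119 for 2-2. Since pairing was taken only where every pair exceeded 0.1, the A549 K3Q libraries were not taken as pairs.

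The members and the other gene lists were chosen with earlier results of these data known. The rule for naming took every collagen gene past the threshold, or else the 3 of lowest p, always COL5A1, COL12A1 and COL4A1 against Ctr, and up to 4 passing genes of each other list, or else its 2 of lowest p. For brevity the last step was followed only in part: not every list without a call has its 2 genes printed. Alternatives were RLE scaling, DESeq2 1.42.0, a replicate block, no batch term, no filter on low counts, summed libraries, batch 2 alone and leaving out each library. Genes outside the 44 were not tested again under alternatives other than the block and DESeq2 counts over all genes. In bulk RNA, fewer cells that express a gene and less RNA per cell cannot be told apart.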

Additional observations from a re-analysis of the deposited data

How the results depend on the processing

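Counts of collagen genes called depended on the fit. RLE scaling moved none of the 16 counts by over 1.5 times, nor did summing A549 K3Q 1-2 and 2-2 for the 3 counts it touches. The next counts are in the order WT, K3R and K3Q against Ctr, then K3R against WT, K3Q against WT and K3Q against K3R. The fit without a low-count filter called 5, 4, 9, 0, 7 and 4 in A549 and 7, 8, 1, 0, 10 and 4 in H1299. It also called 5, 6 and 2 interactions. Its totals over all genes are not given here, so these counts cannot be weighed against them, and the cause was not tested. DESeq2 called 2, 1, 3, 0, 2 and 0 in A549, 5, 4, 0, 0, 7 and 2 in H1299, and 2, 0 and 0 interactions. The replicate block called 1, 1, 3, 0, 0 and 0 in A549 and 5, 4, 0, 0, 7 and 3 in H1299, changing no interaction call. In A549 K3Q, whose libraries were not taken as pairs, the block called COL5A1 (log2 -1.34, adjusted p = 0.014), COL4A4 (1.03, 0.019) and COL6A2 (-1.04, 0.038), among 144 of 16120 genes. Without the batch term H1299 K3R fell to 1 and K3Q against K3R to 0. With replicate 1 summed, and so fewer samples, WT against Ctr kept 1 call and K3R against Ctr, K3Q against WT and K3Q against K3R kept 0. Batch 2 alone gave 1, 0, 1 and 0 for these, and 1 interaction for WT. Leaving out 1 library gave 2 to 5 calls for H1299 WT, 0 to 3 for K3R, 1 to 3 for K3Q against WT, 0 to 1 for K3Q against K3R, 0 to 1 for A549 K3Q against Ctr, 0 to 1 for the WT interaction and 25 to 28 between the lines. Totals over all genes are likewise not given for the fits without batch term, with summed libraries, in batch 2 alone or without 1 library. Over all genes, the block and DESeq2 called 1585 and 1057 for H1299 WT against Ctr (659 without), 1392 and 921 for K3R (528), 136 and 126 for K3Q (10), 1946 and 1123 for K3Q against WT (563) and 526 and 337 for K3Q against K3R (73). In A549 they called 105 and 178 for WT against Ctr, 88 and 162 for K3R and 144 and 154 for K3Q. They called 20 and 56 there for K3Q against WT, and 7 and 23 for K3Q against K3R. Over the 10 calls between constructs, the alternatives gave 130 values, of which 0 reversed direction and 48 missed the threshold. Low counts limit COL5A1 and COL26A1 in H1299, at 1 to 138 counts per library.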

Other observations

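Single libraries held more reads of a few collagen genes than the other libraries of their group. H1299 Ctr 1-1 had 32 counts of COL1A2, 76 of COL2A1, 30 of COL4A1 and 42 of COL4A2, where Ctr 1-2 and 2-2 had 0 or 1 of each. It also had 34 counts of COL5A1 and 31 of COL11A1, against 5 and 4 in Ctr 1-2 and 4 and 3 in Ctr 2-2. In H1299 K3R 1-1 COL5A1 had 138 counts, against 26 in K3R 1-2 and 15 in K3R 2-2. A549 K3R 1-1 had 24 counts of COL1A2 and 53 of COL2A1, where K3R 1-2 and 2-2 each had 0 and 6. H1299 K3Q 1-1 had 16 counts of COL4A1 and 20 of COL4A2, against 3 and 0 in K3Q 1-2 and 5 and 2 in K3Q 2-2. All of these 1-1 libraries belong to batch 1. Antisense genes at COL loci had at most 10 counts in any library, for COL18A1-AS1 and COL18A1-AS2 in A549.

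COL4A3 and COL4A4 were highest in library 1-1 of every A549 group. COL4A3 had 101, 112, 142 and 221 counts there in Ctr, WT, K3R and K3Q, and 21 to 88 in the other A549 libraries. COL17A1 was highest in library 2-2 of every H1299 group, at 24.7, 60.7, 68.0 and 31.0 CPM for Ctr, WT, K3R and K3Q. COL9A3, a cartilage collagen that decorates fibrils, had 57 counts in H1299 WT 2-2 and 7 in WT 1-2.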
